A study of Homo sapiens with 4 samples.

Results

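Some entries of miRNA catalogues have been reported to be pieces of abundant structural RNAs, such as small nuclear RNA (snRNA), ribosomal RNA (rRNA), transfer RNA (tRNA) or vault-like RNA, rather than products of a miRNA hairpin. The 7 entries described here, hsa-miR-1246, hsa-miR-1290, hsa-miR-1275, hsa-miR-5100, hsa-miR-3648, hsa-miR-3687 and hsa-miR-4443 (the prefix for human is left out below), were chosen by name because they have been reported in this way, and the question was whether they varied together across libraries. Of the 7, 6 had a row among the 2656 mature miRNAs of the count table, 5 had enough counts to be tested, and miR-3687 is not analysed here. The entries were named with earlier results of these libraries known, so every difference between groups is given as a description and supports nothing.

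The cells were cortical interneurons differentiated in vitro from H1, a single human embryonic stem cell line, and profiled in bulk by small RNA-seq. The exposed group was grown for 7 days in neuronal maturation medium holding ethanol at 50 to 100 mM and then for a further day without ethanol, and the unexposed group was grown without ethanol. Each group had 2 libraries, from treatments run in duplicate, and p-values measure only the spread between these libraries. Libraries of 22223060 and 24858230 miRNA counts (exposed) were deeper than those of 13941795 and 12100425 (unexposed), so depth and exposure cannot be told apart.

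The libraries carried the miRNAs of neurons. The summed level of 6 neuronal markers (miR-124-3p, miR-9-5p, miR-128-3p, miR-7-5p, miR-218-5p and miR-138-5p), in counts-per-million (CPM) scaled by the trimmed mean of M-values (TMM CPM), was 293943 and 380234 in the exposed libraries and 474422 and 355901 in the unexposed ones. Of 5 stem cell markers, miR-367-3p was at 0 counts in all 4 libraries and the others summed to between 1.59 and 3.26 TMM CPM. Of 3 leukocyte markers, miR-223-3p and miR-142-3p were at 0 in all 4 libraries. The erythroid markers summed to between 0.0777 and 0.698 TMM CPM, the mesenchymal markers to between 78.3 and 109.0, the muscle markers to between 178 and 404, the endothelial marker miR-126-3p lay between 801 and 1012, and the liver marker miR-122-5p between 16.5 and 44.2. In a bulk library, fewer cells of a type and less RNA per cell cannot be told apart.

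A typical miRNA is cut from a hairpin in a longer transcript by Drosha and then by Dicer, and is loaded on an Argonaute protein, where its seed near the 5′ end pairs with target mRNAs. Structural RNAs are far more abundant: U2 snRNA is part of the spliceosome and binds the branch site of introns, rRNAs are cut from a long 45S precursor made in the nucleolus, and tRNAs receive the letters CCA at their 3′ end during maturation. Small RNA libraries select RNA by its size and ends, so short pieces of these RNAs can enter them, and a counter that assigns reads to miRNA annotations can count such a piece as a miRNA where the letters are alike.

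The mature sequences of the 6 entries with counts are shown because their letters decide which other RNAs a read could come from. They were taken from RefSeq (GRCh38.p14), are written 5′ to 3′, and have the seed, bases 2 to 8, in capitals.
hsa-miR-1246: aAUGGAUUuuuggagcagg
hsa-miR-1290: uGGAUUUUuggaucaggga
hsa-miR-1275: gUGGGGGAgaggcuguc
hsa-miR-5100: uUCAGAUCccagcggugccucu
hsa-miR-3648: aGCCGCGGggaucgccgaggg
hsa-miR-4443: uUGGAGGCguggguuuu
No seed was shared within this group. Among the 771 of 863 tested entries with a sequence, the only other one with the seed of a member was miR-4665-5p, which has the seed of miR-1275 and had a mean of 1.79 TMM CPM and a log2 fold change of -0.12 ± 0.34 (SE, n = 2 per group). Of the 6 sequences, 4 (66.7%) were 19 nt or shorter, beside 33 of the 771 tested entries with a sequence (4.28%) and 216 of all 2367 (9.13%). Names without a -5p or -3p ending, which mean that the catalogue lists no second arm, were carried by 6 of 6, beside 171 of 863 tested entries (19.8%).

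In GRCh38.p14, miR-1246 lies at chr2:176601024-176601042 (minus strand), miR-1275 at chr6:34000018-34000034 (minus strand), miR-5100 at chr10:42997630-42997651 (plus strand) and miR-4443 at chr3:48196572-48196588 (plus strand). The precursors of these 4 overlapped no other gene of GENCODE 29. The entry miR-1290 lies at chr1:18897078-18897096 (minus strand), in an intron of ALDH4A1, a mitochondrial dehydrogenase of proline breakdown, on the same strand. A copy of miR-3648 at chr21:8987026-8987046 (plus strand) overlapped no other gene of GENCODE 29, while the other precursor, MIR3648-1, lies inside RNA45SN2, a 45S pre-rRNA gene in RefSeq. The counts carried no coordinates, so which copy a read came from cannot be told.

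The match of the miR-1246 and miR-1290 sequences to U2 snRNA is shown by bases 79 to 124 of RNU2-1, the U2 transcript of 191 nt in GENCODE 29, written as DNA, with the bases aligned to each miRNA in capitals.
RNU2-1 with miR-1246: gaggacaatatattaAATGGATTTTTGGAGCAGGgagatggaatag
RNU2-1 with miR-1290: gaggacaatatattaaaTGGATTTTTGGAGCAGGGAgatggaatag
All 19 bases of miR-1246 matched U2 at bases 94 to 112. The 19 bases of miR-1290 aligned to bases 96 to 114 with 1 mismatch, U13G, in which the miRNA base stands first, the position is counted from the 5′ end of the miRNA, and the U2 base stands last. A read of these 19 bases of miR-1246 therefore has the same letters whether it comes from U2 or from the chromosome 2 hairpin, and the 2 sources cannot be told apart in the counts. Among all 2367 sequences, miR-1246 was the only one with an exact match to an annotated snRNA. Only for miR-1246, miR-1290 and miR-1972 was a closest match, within 1 mismatch, an snRNA. Sequences that lay closer to another class of structural RNA were not compared further with snRNAs.

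The other 4 sequences had no such match in the structural transcripts searched. Over 5722 snRNA, rRNA, snoRNA, vault, mitochondrial and other non-coding transcripts of GENCODE 29, exact matches were found for 15 of 2367 sequences (0.634%). The fewest mismatches were 4 for miR-1275, 4 for miR-4443, 6 for miR-3648 and 7 for miR-5100. That set holds no nuclear tRNA and no full 45S pre-rRNA. Its 52 rRNA transcripts hold only 6322 bases in all, and how far they cover the long mature rRNAs was not checked. The result therefore says only that these letters are not in the transcripts searched.

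Precursor folding was a readout that did not use the counts. Folded with RNAfold, the MIR1246 precursor had a minimum free energy of -25.48 kcal/mol per 100 nt, and 97.1% of 1560 RefSeq precursors were more stable per length. MIR1275 (-33.25 kcal/mol per 100 nt, with 86.1% more stable) and MIR5100 (-39.83, with 68.2% more stable) lay on the same side of the median of -45.17. MIR4443 lay on the other side (-47.92, with 41.1% more stable), so weak folding was not shared by all 4 precursors with a sequence.

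**Figure D1:**
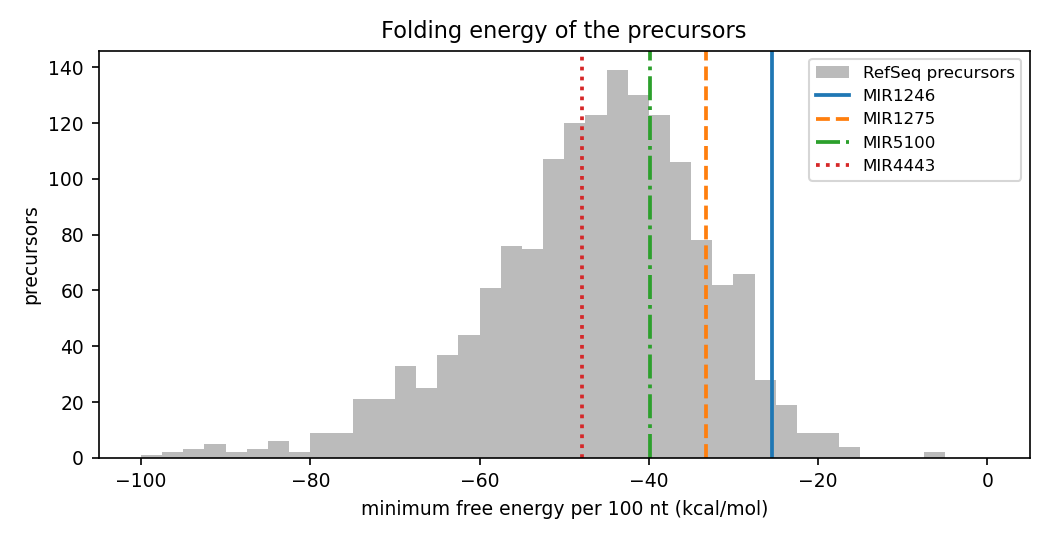
Minimum free energy per 100 nt (x axis, kcal/mol) of 1560 RefSeq miRNA precursors (grey bars, number of precursors on the y axis), with vertical lines at the precursors of 4 entries. MIR1246, at -25.48, stands in the weakly folded tail, and MIR4443, at -47.92, stands near the middle of the distribution.

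The U2-like pair was the most abundant of the 6 entries, and its members differed in their order of libraries after TMM scaling. For miR-1246, the level was 388 and 417 TMM CPM in the exposed libraries and 482 and 359 in the unexposed ones (9794, 10138, 5682 and 4613 counts). The groups overlapped, with both exposed libraries between the unexposed ones, but without TMM scaling they did not (440.7 and 407.8 CPM exposed, 407.6 and 381.2 CPM unexposed). The group means were 402 ± 19.9 and 420 ± 87.1 TMM CPM (SD, n = 2 each), and the log2 fold change was -0.06 ± 0.23 (SE), or 0.11 with library size alone as the scaling. Without unexposed replicate 1 it was 0.16.

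The level of miR-1290 was 67.7 and 64.7 TMM CPM in the exposed libraries and 40.9 and 42.0 in the unexposed ones (1708, 1574, 482 and 541 counts). Both exposed libraries were above both unexposed ones, and the libraries of each group lay close together. The group means were 66.2 ± 2.17 and 41.5 ± 0.836 TMM CPM (SD, n = 2 each), and the log2 fold change was 0.68 ± 0.23 (SE). Leaving out any of the 4 libraries kept it between 0.64 and 0.71.

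Because both counts come from the same library, the ratio of miR-1246 to miR-1290 does not depend on scaling. It was 5.73 and 6.44 in the exposed libraries and 11.8 and 8.52 in the unexposed ones, with no overlap of the groups. This range of 2.05-fold was close to the median of 2.06-fold over all 371953 pairs of tested miRNAs, and 49.64% of pairs had a smaller one. The 2 sequences share a run of 12 bases.

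The entries miR-1275 and miR-5100 were high in exposed replicate 1, and far less so in the other exposed library. For miR-1275, the level was 25.8 and 7.56 TMM CPM in the exposed libraries and 5.09 and 7.38 in the unexposed ones (650, 184, 60 and 95 counts). The groups did not overlap, but exposed replicate 2 and unexposed replicate 2 were nearly level, and without TMM scaling their order turned (7.40 and 7.85 CPM). The group means were 16.7 ± 12.9 and 6.24 ± 1.62 TMM CPM (SD, n = 2 each). The log2 fold change was 1.42 ± 0.55 (SE), and 0.27 without exposed replicate 1, 2.05 without exposed replicate 2, 1.18 without unexposed replicate 1 and 1.66 without unexposed replicate 2.

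For miR-5100, the level was 41.8 and 19.6 TMM CPM in the exposed libraries and 13.8 and 16.6 in the unexposed ones (1055, 476, 163 and 214 counts). Exposed replicate 1 stood well above the rest, and the other exposed library stood slightly above both unexposed ones. The group means were 30.7 ± 15.8 and 15.2 ± 1.99 TMM CPM (SD, n = 2 each). The log2 fold change was 1.01 ± 0.38 (SE), and 0.36 without exposed replicate 1, 1.46 without exposed replicate 2, 0.88 without unexposed replicate 1 and 1.11 without unexposed replicate 2.

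The gap between the exposed libraries was among the widest of all miRNAs tested. For miR-1275, exposed replicate 1 was 3.40-fold above exposed replicate 2 (0.5 added to each count), and 99.77% of the 863 tested miRNAs had a smaller gap. For miR-5100 the gap was 2.14-fold, and 96.41% had a smaller one. For the U2-like pair the gap was small, with a ratio of 1.05 for miR-1290 and 0.93 for miR-1246. Exposed replicate 1 also had the lowest summed neuronal marker level (293943 TMM CPM) and the highest TMM factor (1.14), and the part of these in the result was not tested.

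The entry miR-4443 was set apart by unexposed replicate 1. Its level was 4.48 and 2.79 TMM CPM in the exposed libraries and 1.10 and 5.13 in the unexposed ones (113, 68, 13 and 66 counts). Unexposed replicate 2 was the highest of the 4 and unexposed replicate 1 the lowest, so the groups overlapped. The 95% Wilson intervals of the unscaled level, 0.545 to 1.59 CPM in unexposed replicate 1 and 4.29 to 6.94 CPM in unexposed replicate 2, did not overlap, so counting error alone does not span this gap, and 99.19% of tested miRNAs had a smaller one. The log2 fold change was 0.21 ± 0.60 (SE), and its sign turned to -0.17 without exposed replicate 1 and to -0.50 without unexposed replicate 1, while it was 1.68 without unexposed replicate 2.

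The entry with a copy in an rRNA gene, miR-3648, had only 12, 6, 2 and 4 counts and was left out of the test by the filter on low counts. Its unscaled level was 0.54 CPM (95% Wilson interval 0.309 to 0.944) in exposed replicate 1 and 0.241 CPM (0.111 to 0.527) in exposed replicate 2. In the unexposed libraries it was 0.143 CPM (0.0393 to 0.523) and 0.331 CPM (0.129 to 0.850). All 4 intervals overlapped, so no difference was detectable at this depth.

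**Figure D2:**
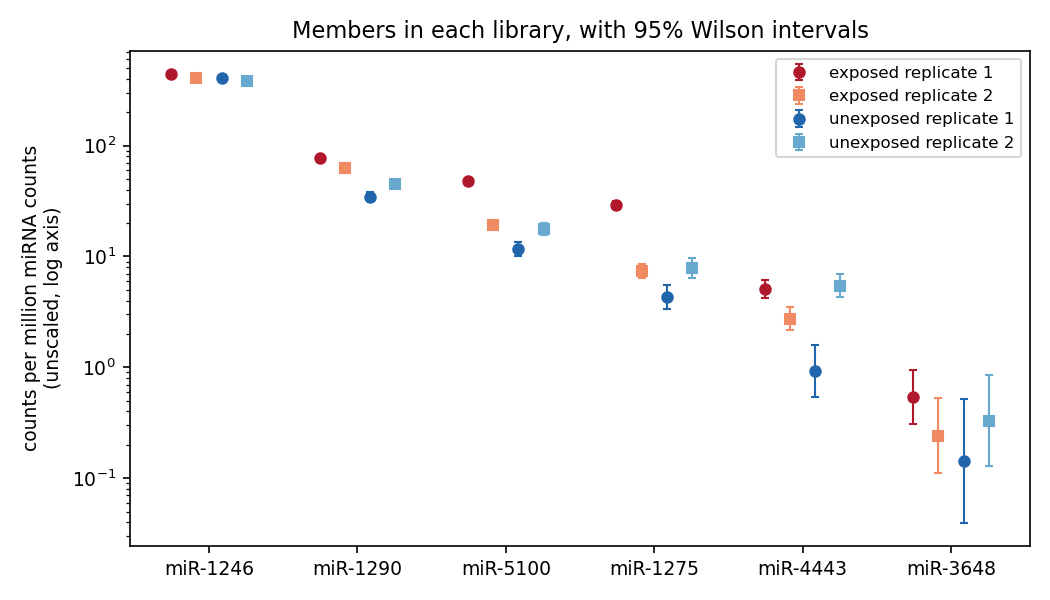
Level of each of the 6 entries in each of the 4 libraries, as unscaled counts-per-million (CPM) on a log axis, with 95% Wilson intervals that cover counting error only. For miR-1275 and miR-5100 exposed replicate 1 stands above the other 3 libraries, for miR-1290 both exposed libraries do, and for miR-4443 unexposed replicate 1 stands below.

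Side by side, the 5 tested entries gave a mixed picture of the exposed against the unexposed group. By edgeR's quasi-likelihood test, 2 of 5 (miR-1275 and miR-5100) passed both of the study's thresholds, an unadjusted P of 0.05 together with a fold change of 2, as did 2.32% of the 863 miRNAs tested. With the P of 0.05 alone, 3 of 5 passed, miR-1290 being the third, all higher in the exposed group, beside 2.55% of tested miRNAs in that direction and 4.52% in either. The groups did not overlap, with the exposed libraries higher, for the same 3 entries, beside 18.8% of all tested. After Benjamini-Hochberg adjustment over all 863, none passed in edgeR (adjusted p from 0.922 to 0.983) or DESeq2, nor did any other miRNA (0%), whereas 39 had an unadjusted P under 0.05 in edgeR and 28 in DESeq2. The log2 fold change was above 0 for 4 of 5 entries and for 48.8% of all tested, and its median was 0.68 over the 5 entries and -0.01 over all miRNAs tested. Nothing is read from these counts, since the choice of the entries was made with this contrast known.

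**Figure D3:**
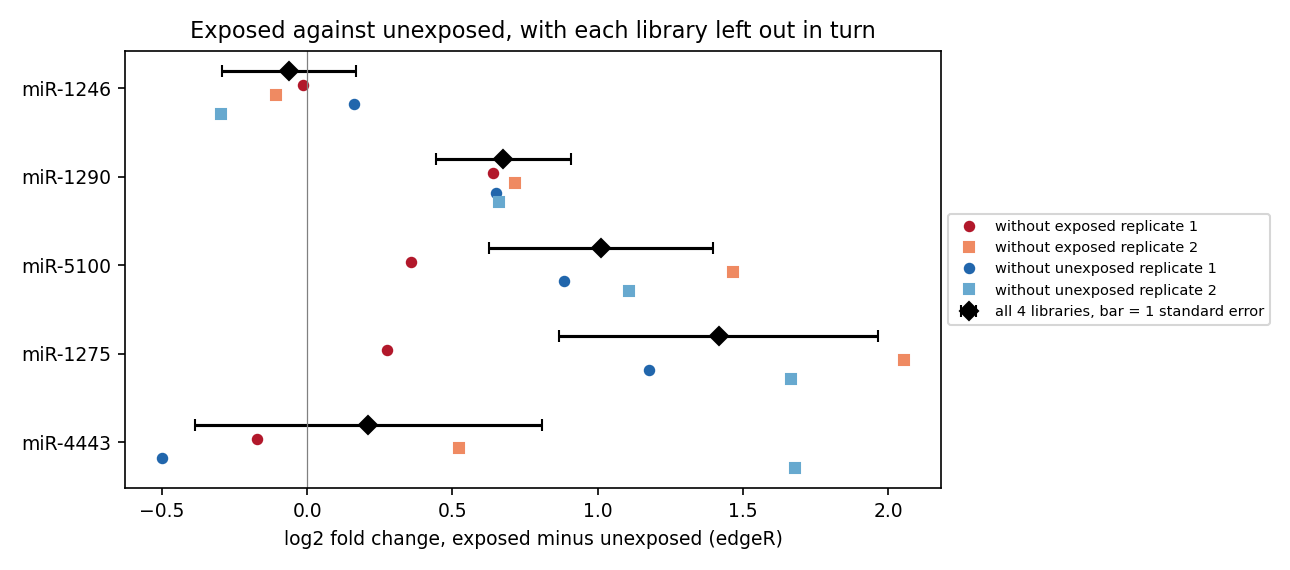
Log2 fold change of the 5 tested entries, exposed minus unexposed, by edgeR (x axis), with all 4 libraries (black diamonds, bars of 1 standard error) and with each library left out in turn (coloured points). The points of miR-1290 stay between 0.64 and 0.71, those of miR-1275 run from 0.27 without exposed replicate 1 to 2.05 without exposed replicate 2, and those of miR-1246 and miR-4443 lie on both sides of 0.

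To describe whether the entries varied together, each was expressed as the log2 deviation of its level from its own mean over the 4 libraries. With 4 libraries, a correlation across samples was not calculated. After TMM scaling, exposed replicate 1 was the highest library for 4 of the 6 entries, and for 3 of the 5 tested ones, beside 31.3% of tested miRNAs. With library size alone it was the highest for 5 of the 6 entries, with miR-1246 added. With upper quartile scaling it was the highest for 3, with miR-1290 dropped. Among the tested entries miR-1290, miR-1275 and miR-5100 shared one order after TMM scaling (exposed replicate 1, exposed replicate 2, unexposed replicate 2, unexposed replicate 1). It was also the order of 68 of 863 tested miRNAs (7.88%). Without TMM scaling miR-1275 left this order, with 7.40 CPM in exposed replicate 2 and 7.85 CPM in unexposed replicate 2. The shared order hid different shapes: miR-1290 stepped down between the groups (deviations of 0.37, 0.30, -0.32 and -0.36 in that order), whereas miR-1275 stepped down after exposed replicate 1 (1.47, -0.29, -0.32 and -0.86).

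The range over the 4 libraries also differed among the entries. It was 5.03-fold for miR-1275, 4.52-fold for miR-4443 and 3.02-fold for miR-5100, and 98.84%, 97.8% and 94.09% of tested miRNAs had a smaller range. It was 1.66-fold for miR-1290 and 1.34-fold for miR-1246, beside a median of 1.60-fold over all tested. The most abundant entry was thus the steadiest, and the summed level of the 6 mostly followed it: 529 and 511 TMM CPM in the exposed libraries and 543 and 430 in the unexposed ones, with overlap of the groups. Without TMM scaling the sums did not overlap, at 599.9 and 500.7 CPM exposed and 459.2 and 457.3 CPM unexposed. Without miR-1246 the sum was 140 and 94.8 TMM CPM in the exposed libraries and 61.0 and 71.5 in the unexposed ones, with no overlap.

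**Figure D4:**
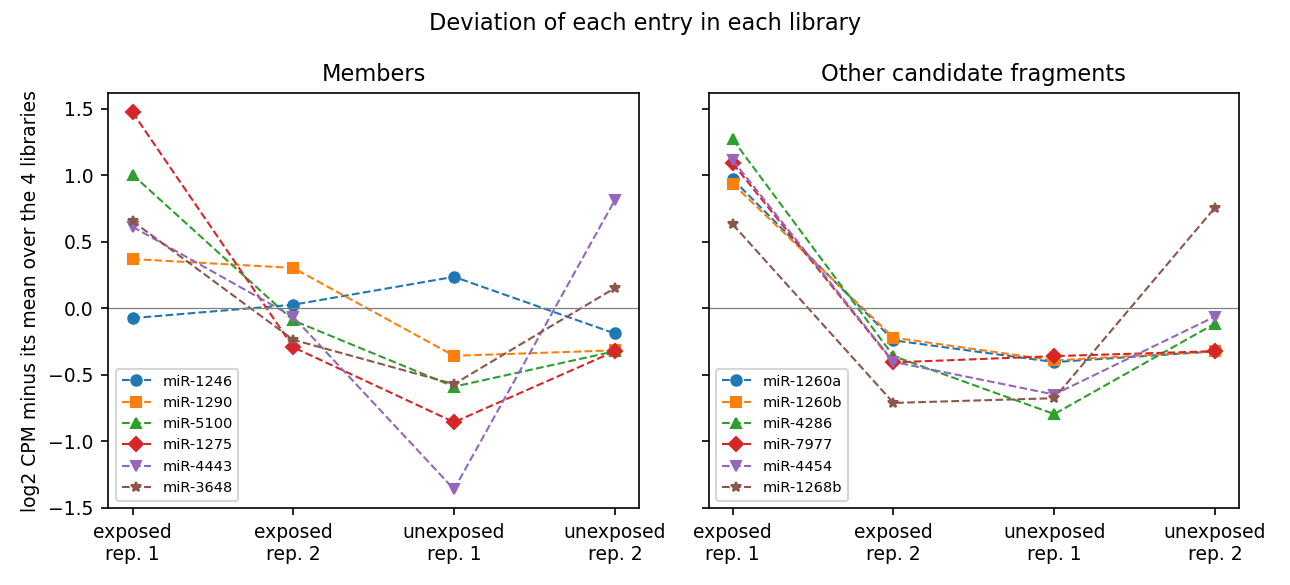
Log2 CPM of each entry in each library minus its mean over the 4 libraries, for the 6 entries (left) and for 6 other candidate fragments (right), with lines that only join the points of an entry. On the right, 5 of the 6 lie near 1 in exposed replicate 1 and below 0 in the other 3 libraries, a shape that on the left only miR-1275 and miR-5100 have, while miR-4443 and miR-1268b are also high in unexposed replicate 2.

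Ratios within a library gave the closest pairing for miR-1275 and miR-5100. The ratio of miR-1275 to miR-5100 was 0.616 and 0.387 in the exposed libraries and 0.370 and 0.445 in the unexposed ones. That range of 1.67-fold was the smallest among the 15 pairs of the 6 entries, and 27.59% of all pairs of tested miRNAs had a smaller one. At the other end, the ratio of miR-1246 to miR-1275 ranged 6.24-fold, and 97.29% of pairs had a smaller range.

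The miRNAs with the most similar profile, by the root mean square (RMS) difference of the log2 deviations over the 4 libraries, fell into 2 kinds. For miR-1275 they were miR-4286 (RMS difference 0.15) and miR-4454 (0.25), where the median over the other 862 tested miRNAs was 0.89. For miR-5100 they were miR-1260a (0.12) and miR-1260b (0.12), with a median of 0.64. All 4 belong to a list of other entries reported as fragments of tRNA, rRNA or other structural RNA. In the structural transcripts searched, the fewest mismatches were 4 for miR-1260a, 4 for miR-1260b and 6 for miR-4454, and miR-4286 had no sequence. Nuclear tRNA was not among these transcripts, so a match to it could not be found. Listed miR-4485-3p (0 mismatches, mitochondrial rRNA) and miR-1268a (1 mismatch) stood at ranks 53 and 140 in likeness to miR-1275, and 42 and 427 to miR-5100. The entry miR-5100 itself stood at rank 4 of 862 in likeness to miR-1275, while miR-1275 stood at rank 24 in likeness to miR-5100. For miR-1246 they were miR-361-5p (0.020) and let-7b-5p (0.028), for miR-1290 miR-139-3p (0.041) and miR-486-5p (0.061), and for miR-4443 miR-485-3p (0.16) and miR-6741-3p (0.17), none of them on that list. The U2-like entries were not among each other's most similar profiles (RMS difference 0.40), with miR-1290 at rank 598 of 862 in likeness to miR-1246 and miR-1246 at rank 383 in likeness to miR-1290.

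The list of other candidates had 22 names, of which 18 had a row and 9 were tested. Of the 9, 7 had a log2 fold change above 0 and 2 below, with a median of 0.83, beside 48.8% of all tested miRNAs above 0. By edgeR's test 2 (miR-1260a and miR-1260b) had an unadjusted P under 0.05, beside 4.52% of all tested, but neither with a fold change of 2. The ratio of these 2 entries ranged only 1.04-fold over the libraries, so they do not count as 2 separate observations. Exposed replicate 1 was the highest library for 7 of the 9, beside 31.3% of all tested. The 5 most abundant by mean level were miR-1260b, miR-1260a, miR-4286, miR-7977 and miR-1268b.

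The sequences of the list's entries that ended in CCA, and of miR-1260b, in which CCA is followed by U, are shown because tRNAs end in these letters, with seeds in capitals.
hsa-miR-1260a: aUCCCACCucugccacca
hsa-miR-1260b: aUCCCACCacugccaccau
hsa-miR-4454: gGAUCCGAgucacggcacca
hsa-miR-7977: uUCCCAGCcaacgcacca
Among the tested entries with a sequence, 6 of 771 (0.778%) ended in CCA, and none of the 6 members did. Of these 6, miR-1260a, miR-4454 and miR-7977 were more than 2-fold higher in exposed replicate 1 than in each of the other 3 libraries, and miR-1267, miR-1306-5p and miR-4677-5p were not. The sequences miR-1260a and miR-1260b differ by few bases, so the split of reads between them is uncertain, and the same holds for miR-1268a and miR-1268b.

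For miR-1260b, the level was 1000.1 and 448 TMM CPM in the exposed libraries and 398 and 417 in the unexposed ones. For miR-4286, it was 78.6 and 25.4 in the exposed libraries and 18.7 and 30.1 in the unexposed ones. Both had the step after exposed replicate 1 that miR-1275 and miR-5100 had. The ratio of miR-5100 to miR-1260b was 0.0419, 0.0437, 0.0348 and 0.0399 in exposed replicates 1 and 2 and unexposed replicates 1 and 2, a range of 1.25-fold that only 3.95% of all pairs undercut. The ratio of miR-1275 to miR-4286 was 0.328, 0.298, 0.273 and 0.246 in the same order, a range of 1.33-fold that 7.29% of pairs undercut. These partners were picked for their likeness, so the small ranges are a description.

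In all, 9 of 863 tested miRNAs (1.04%) were more than 2-fold higher in exposed replicate 1 than in each other library. They were miR-1275 (3.40-fold over the next library), miR-7977 (2.66), miR-4286 (2.61), miR-1260a (2.32), miR-4454 (2.26), miR-1260b (2.23), miR-10400-5p (2.14), miR-5100 (2.14) and miR-4324 (2.09). Of the 9, 2 were members, 5 were on the list of other candidates and 2 were on neither. Members made up 5 and listed candidates 9 of the 863 tested miRNAs. Both sets were chosen with earlier results of these data known, so the overlap is a description and supports nothing. Among the other members, the widest gap between the exposed libraries was that of miR-3648, at 1.86-fold on 12 and 6 counts.

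**Figure D5:**
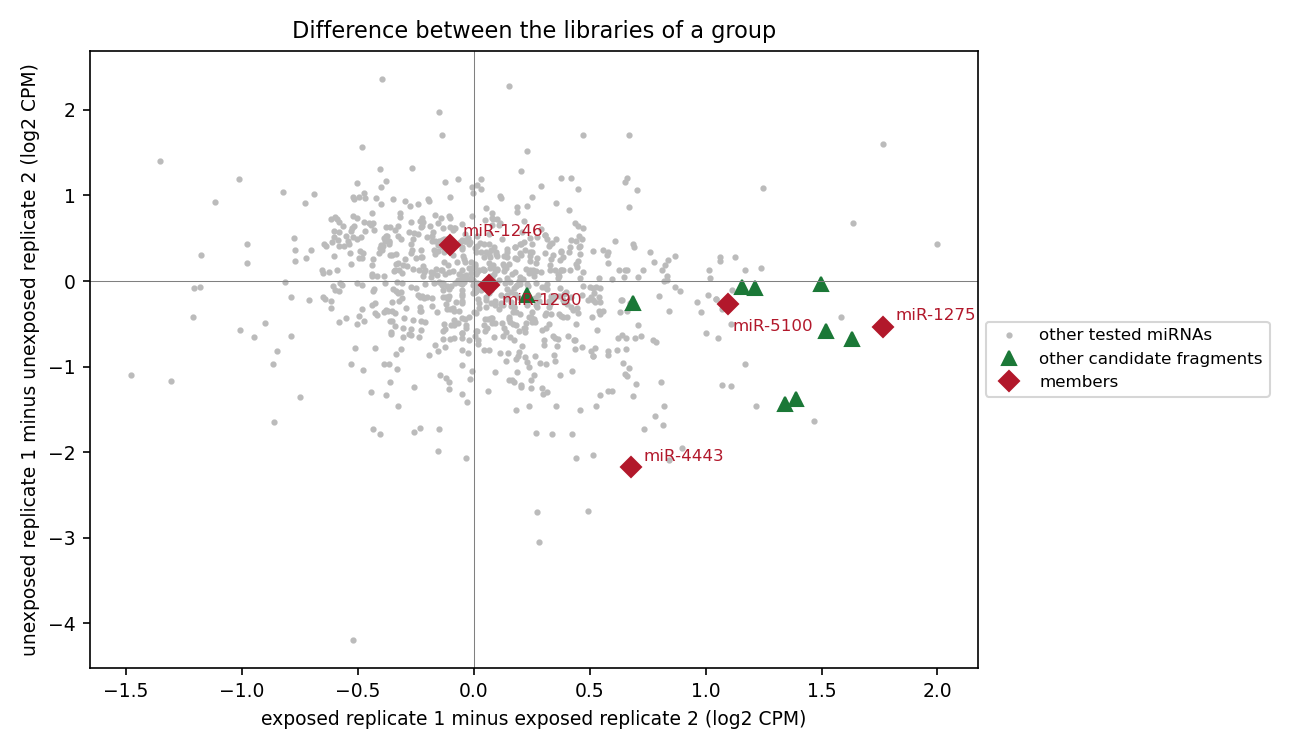
Difference between the libraries of a group in log2 CPM, exposed replicate 1 minus 2 (x axis) and unexposed replicate 1 minus 2 (y axis), for the 863 tested miRNAs. Members miR-1275 and miR-5100 and 7 of the 9 other candidates (triangles) lie beyond 1 on the x axis, miR-1246 and miR-1290 lie near the centre, and miR-4443 lies low on the y axis.

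Entries derived from small nucleolar RNA (snoRNA), another structural class, gave other values. Of 11 names, 7 had a row and 4 were tested. Of the 4, 2 had a log2 fold change above 0 and 2 below, with a median of -0.25, beside 48.8% of all tested miRNAs above 0. By edgeR's test only miR-1248 had an unadjusted P under 0.05, beside 4.52% of all tested. It had 0.436 and 0.452 TMM CPM in the exposed libraries and 1.02 and 0.777 in the unexposed ones, on 10 to 12 counts a library. Exposed replicate 1 was the highest library for 1 of the 4, beside 31.3% of all tested. Whether these entries differ from the members was not tested.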

How the data were processed

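Small RNA of H1-derived cortical interneurons was sequenced in 4 libraries (2 exposed, 2 unexposed), with groups and replicate numbers taken from the labels. The authors used the NEBNext small RNA kit, ran CAP-miRseq on the reads, and deposited a table of raw counts, 1 row per mature miRNA. Per the submitters' processing notes the build was hg19, and the annotation release is not given in the sources used here. Reads without molecular identifiers are not independent molecules, so intervals (Wilson, 95%) and floors (3 counts, 0.121 to 0.248 CPM) cover counting error only.

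R 4.3.3 and edgeR 4.0.16 were used on the counts. The filter filterByExpr, given the groups (minimum count 10, minimum total 15), kept 863 miRNAs, followed by TMM factors (0.846 to 1.14), the quasi-likelihood test without covariates and Benjamini-Hochberg adjustment over all 863. The standard error was taken from the F statistic. The fit was tested on simulated data. Exact permutation of 2 against 2 libraries cannot go below a p of 0.333 and was not used. Replicates differed by more than sampling noise (chi-square per degree of freedom 794 in the exposed and 712 in the unexposed group). Other fits used DESeq2 1.42.0, voom in limma 3.58.1, other scalings and filters, replicate blocks and leaving out each library.

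Mature and precursor sequences came from RefSeq (GRCh38.p14), matched by name for 2367 of 2656 miRNAs, and precursors were folded with RNAfold 2.7.2. Sequences were compared without gaps with structural transcripts of GENCODE 29.

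The members and lists were chosen with earlier results of these data known. The miRNAs named are the members, the 5 most abundant of the list of other candidates, tested miRNAs that share a seed or a run of at least 12 bases with a member, and the 2 most similar profiles of each tested member. Further miRNAs in the text were picked with their values in view. The candidates miR-3656, miR-4461, miR-4532 and miR-6087 were not analysed here.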

Additional observations from a re-analysis of the deposited data

How the results depend on the processing

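With 2 libraries a group, leaving out a library leaves a lone sample that is assumed to vary like the other group, and groups of this size allow no check for an outlying library. Scaling by library size alone moved the median log2 fold change of all miRNAs to 0.145 and upper quartile scaling to -0.119, from -0.01. The cause of the shifts below was not tested.

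The 2 members past both thresholds (P of 0.05, fold change of 2) became 0 with limma-voom, 1 with DESeq2, with DESeq2 size factors in edgeR, with upper quartile scaling and when CPM had to exceed 1 in 2 or more libraries, and 0 to 3 with a library left out (0 without exposed replicate 1, 1 without unexposed replicate 1). The 3 members past a P of 0.05 became 1 with limma-voom and 0 to 4 with a library left out (0 without exposed replicate 1). Leaving out a library also moved the counts over all miRNAs, from 39 past the P to between 12 (of 845 tested, without exposed replicate 1) and 109 (of 954, without unexposed replicate 2), and from 20 past both thresholds to between 10 and 44. The median log2 fold change of the 5 tested members ranged from 0.27 (without exposed replicate 1) to 1.11 (without unexposed replicate 2). For miR-1290 the P stayed under 0.05 in 10 of 10 alternatives that kept all libraries, and for miR-1275 and miR-5100 in 8 of 10. The adjusted p ranged over these alternatives from 0.0161 to 0.992 for miR-1275, the lowest without a filter on low counts, from 0.244 to 0.992 for miR-5100 and from 0.635 to 1.00 for miR-1290. The log2 fold change of miR-1246 turned to 0.11 with library size alone and ranged from -0.29 to 0.16 (without unexposed replicate 1) with a library left out, and that of miR-4443 to -0.17 without exposed replicate 1 and ranged from -0.50 (without unexposed replicate 1) to 1.68.

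The log2 difference of the summed members, 0.11, turned to -0.0013 with upper quartile scaling, was 0.26 with library size alone and 0.80 without miR-1246, and ranged from -0.062 (without unexposed replicate 2) to 0.27 with a library left out. The log2 ratio of miR-5100 to miR-1275, exposed minus unexposed, was -0.27 and ranged from -0.60 to 0.068 (without exposed replicate 1), and that of miR-1246 to miR-1290 was -0.72 and ranged from -0.95 to -0.49.

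Same-numbered libraries did not deviate together (correlation of their differences across miRNAs -0.19). The labels do not say whether the numbers pair the samples, and this value cannot decide it. With a replicate block, 0 members passed both thresholds, 1 passed the P alone, and 25 miRNAs passed the P in place of 39. A crossed block, chosen after seeing the data, gave 1 and 3 members and 59 miRNAs. Over all miRNAs, no filter gave 94 past the P and 49 past both thresholds (6 after adjustment), and the count of 20 past both fell to 10 with DESeq2, 12 when CPM had to exceed 1 in 2 or more libraries and 11 when each library needed 10 or more counts.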
